A study of Homo sapiens with 4 samples.

Results

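The 4 members of the PMP22 family of tetraspan membrane proteins (EMP1, EMP2, EMP3 and PMP22) and the caveolins CAV1 and CAV2 were followed across single cells of a migrating epithelial patch. These 6 genes were found by name among 19658 distinct rows, and all 6 were listed in each of the 4 plates, which held between 17143 and 17454 rows. The members were chosen by their measured levels across cells and plates, with results of these data known, so their levels, their differences between plates and their relation to the epithelial-mesenchymal transition (EMT) are given as descriptions, with no p-value for any member. In single cells the paralogs parted: EMP1 fell and EMP3 rose along the EMT score while EMP2 stayed level, and CAV1 rose while CAV2 changed little.

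The EMP proteins (epithelial membrane proteins) and PMP22 (peripheral myelin protein 22) cross the plasma membrane several times and belong to the wider claudin-like superfamily. EMP2 is known for regulating integrins and caveolin at the cell surface, and PMP22 for its role in the myelin of Schwann cells. Caveolins form the coat of caveolae, the flask-shaped pits of the plasma membrane. CAV1 is required for these pits in most cells outside muscle and binds CAV2, cavins stabilise the coat and EHD2 sits at the neck of the pit. In EMT, cells lose epithelial junction proteins such as E-cadherin (CDH1) and EPCAM and gain vimentin (VIM) and fibronectin (FN1).

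The cells were MCF10A_H2B_GFP, an untransformed human mammary epithelial line that carries a GFP-tagged histone, and all groups shared this line. For each patch, 10000 cells were seeded in a circle on a fibronectin-coated dish and cultured for 6 days, after which concentric bands were labelled with photoactivated dyes and cells were sorted into 384 wells for SORT-seq, a plate-based method that counts transcripts by unique molecular identifiers (UMIs). Bands were 1000 to 1500 µm wide in the 2 low-resolution plates and 250 µm wide at the edge in the 2 high-resolution plates. Which band a well came from was not analysed here, and a plate stands for all the sorted cells of its experiment, and the plates of a group are the replicates. The study describes the plates of a group as biological replicates. Errors between the experiments come from a fit that partly pools the spread between these plates over genes. No agent or altered gene separated the experiments.

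Between 271 and 293 cells per plate held 2000 to 9000 features with less than 40% of mitochondrial counts, the limits the study set, or 1146 of 1536 wells, with a median of 30520 to 41248 transcripts per cell. The study analysed more cells than passed here. Without the limit on mitochondrial counts 321 to 334 cells per plate remained, which is also fewer. Of 5 basal mammary epithelial markers, 4 (KRT5, KRT14, KRT17 and ITGA6) were found in 20% or more of the cells in each plate, and the list summed to 24.8 to 32.2 counts per 10000. The fifth, TP63, was found in 2.58% to 4.12% of cells. Fibroblast markers summed to between 0.0729 and 0.148 counts per 10000, immune markers to between 0.0764 and 0.0940, and endothelial markers to between 0.186 and 0.255, of which PECAM1 had a UMI in 28.5% to 47.1% of cells. The fibroblast marker COL1A1 had a UMI in 17.3% to 27.6% of cells and the immune marker CD68 in 18.6% to 27.0%. The endothelial marker KDR had one in 6.19% to 11.8%. Of 4 Schwann cell markers, only 1 was listed, and its highest level was 0.000872. The 4 plates use the same well barcodes by design, so shared barcodes do not mark shared cells.

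The genes lie on 5 chromosomes. In the RefSeq annotation of GRCh38.p14, EMP1 lies at chr12:13196726-13219941, EMP2 at chr16:10528422-10580598, EMP3 at chr19:48325552-48330553 and PMP22 at chr17:15229779-15265326. CAV2 at chr7:116499738-116508541 and CAV1 at chr7:116525009-116561185 are neighbours in the same orientation, with 16467 bases between the end of CAV2 and the start of CAV1.

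The 250 bases before the most upstream RefSeq start of 4 members are shown, since EMP1 and EMP3 were the paralogs that moved in opposite directions and CAV1 and CAV2 the neighbours that varied together. They cover chr12:13196476-13196725, chr19:48325302-48325551, chr7:116524759-116525008 and chr7:116499488-116499737, all on the plus strand. Capitals mark matches, on either strand, to the AP-1 site TGANTCA, the E-box of SNAI and ZEB factors spelled CAGGTG, the TEAD site written GGAATG, the GC box, which reads GGGCGG, and the TATA box, which reads TATAAA.
EMP1: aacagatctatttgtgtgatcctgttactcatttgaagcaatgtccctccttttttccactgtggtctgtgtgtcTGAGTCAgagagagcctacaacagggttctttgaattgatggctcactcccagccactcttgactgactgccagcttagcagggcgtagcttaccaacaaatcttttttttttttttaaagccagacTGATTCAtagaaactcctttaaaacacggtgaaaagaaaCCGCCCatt
EMP3: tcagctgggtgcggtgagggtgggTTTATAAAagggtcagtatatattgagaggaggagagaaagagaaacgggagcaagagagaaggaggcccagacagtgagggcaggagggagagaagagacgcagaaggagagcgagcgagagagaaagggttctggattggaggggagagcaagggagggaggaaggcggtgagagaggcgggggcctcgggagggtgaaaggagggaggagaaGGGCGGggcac
CAV1: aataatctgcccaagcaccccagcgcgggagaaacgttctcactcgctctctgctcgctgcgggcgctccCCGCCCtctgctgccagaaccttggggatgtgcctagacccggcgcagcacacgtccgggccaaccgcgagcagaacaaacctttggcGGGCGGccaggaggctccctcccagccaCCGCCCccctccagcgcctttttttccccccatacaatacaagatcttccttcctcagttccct
CAV2: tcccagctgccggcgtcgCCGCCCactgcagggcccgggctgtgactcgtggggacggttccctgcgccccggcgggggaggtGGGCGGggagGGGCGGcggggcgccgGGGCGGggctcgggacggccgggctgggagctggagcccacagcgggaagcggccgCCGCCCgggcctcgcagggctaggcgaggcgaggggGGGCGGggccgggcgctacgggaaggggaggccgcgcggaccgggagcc
The EMP1 window held 2 AP-1 matches, which start 175 and 48 bases before the gene, and none of the other 5 members held any. AP-1 matches were found in 6.57% of 27305 such windows genome-wide. EMP3 held overlapping TATA box matches on both strands, with starts 226 and 224 bases upstream, where 11.2% of all windows held one. No member window held the E-box or TEAD letters, which 17.5% and 12.0% of windows held. GC boxes were found in 42.2% of windows, with 6 in CAV2, 3 in CAV1 and 1 each in EMP1, EMP2 and EMP3. The GC content was 42.4% for EMP1, 59.2% for EMP3, 63.6% for CAV1 and 83.2% for CAV2, against a median of 57.6%. EMP3 and CAV2 each had 2 RefSeq starts and CAV1 and PMP22 each had 3, and only the most upstream was searched. Which start these cells use was not tested. These matches describe letters and do not show that a factor binds.

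EMP1 was detected in nearly every cell. Its mean level was 6.54 and 5.80 counts per 10000 in low-resolution replicates 1 and 2 and was 4.35 and 5.78 in the corresponding high-resolution replicates. Within a plate the 10th to 90th percentile ran from 2.52 to 12.2 counts per 10000 in low-resolution replicate 1 and from 1.68 to 7.74 in high-resolution replicate 1. At an equal depth of 10000 UMIs per cell, 96.8% to 98.3% of cells held an EMP1 UMI.

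EMP2 was lower and even across plates. Its mean level was 1.40, 1.29, 1.33 and 1.23 counts per 10000 in the same order of plates, and 61.2% to 69.3% of cells held a UMI at equal depth. The experiments overlapped, and the SD over the cells of a plate was 0.840 to 1.04.

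EMP3 varied widely among cells, with an SD of 2.15, 2.60, 3.23 and 2.82 counts per 10000. Its mean level was 1.76 and 2.03 counts per 10000 at low resolution against 3.95 and 3.32 at high resolution. The experiments did not overlap, and by pooled counts per plate 28.3% of all genes tested were likewise higher without overlap. At equal depth, 59.6% (95% Clopper-Pearson interval 53.7 to 65.3) and 58.6% (52.4 to 64.5) of low-resolution cells held a UMI, against 80.6% (75.6 to 85.1) and 75.9% (70.6 to 80.7) of high-resolution cells. The intervals cover counting error only.

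PMP22 was close to absent. Its UMIs summed to 6 and 4 at low resolution against 26 and 25 at high resolution, from 5, 4, 21 and 20 cells. At equal depth, 0.697% to 2.11% of cells held a UMI, and single cells could not be ordered by it.

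CAV1 was the most counted member and CAV2 was present with it. CAV1 had a mean of 15.9, 12.5, 17.7 and 16.6 counts per 10000, with a UMI in 99.6% to 100.0% of cells at equal depth. CAV2 had a mean of 6.33, 4.29, 4.57 and 4.72 counts per 10000, with a UMI in 97.0% to 98.6% of cells. SORT-seq counts 3′ ends, which gives 1 count per transcript whatever its length, so these levels were not divided by length.

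All 5 well-detected members had a larger variance over the mean of UMIs than the median gene. The variance over the mean of UMIs at equal depth was 2.67 to 3.39 for EMP1, 2.95 to 4.0 for EMP3, 4.21 to 5.37 for CAV1 and 1.78 to 2.03 for CAV2, against a median of 1.17 to 1.21 over 3698 genes with at least 0.3 UMIs per cell. EMP2 had 1.33 to 1.77. EMP1, EMP3 and CAV1 lay above the 94th percentile of these genes in every plate, while CAV2 lay at the 87.1 to 89.4 percentile and EMP2 at the 70.6 to 85.5 percentile. The genes were not matched by level, and this ratio can rise with the mean. At equal depth CAV1 had a mean of 13.1 to 18.7 UMIs and EMP2 of 1.21 to 1.43. The order of the members was therefore not separated from their levels.

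The EMT score, a gene set score of mesenchymal minus epithelial genes computed by GSVA, was calculated without the members. The lists held 64 epithelial genes and 94 to 97 mesenchymal genes after EMP3, CAV1 and PMP22, which the mesenchymal list contains, had been removed. The score therefore shares no counts with the members other than through depth, but the published list had already placed these 3 genes on the mesenchymal side. A member was counted as following the score when its Spearman's rho had a size of at least 0.3 and the same sign in all 4 plates.

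Of the 5 members found in 20% or more of the cells in each plate, 3 followed the score, where 4.73% of the 7956 genes outside the score, members included, did. EMP3 had a rho of 0.723 and 0.751 at low resolution against 0.791 and 0.817 at high resolution, the highest mean (0.771) of all these genes. CAV1 had 0.539, 0.612, 0.577 and 0.496. EMP1 had -0.478, -0.501, -0.460 and -0.510, so 2 members rose, against 2.31% of genes, and 1 fell, against 2.41%. The remaining 2 did not follow it. EMP2 had values between -0.0240 and 0.0535, and CAV2 values between 0.0123 and 0.192. The median over all genes was 0.0154. PMP22 had 0.113 to 0.220 but was too sparse to be counted.

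**Figure D1:**
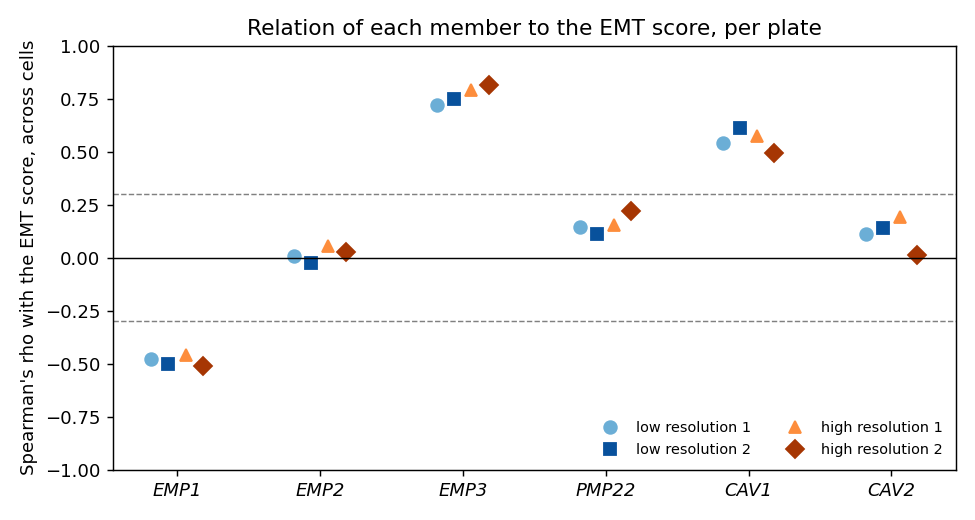
Spearman's rho of each member with the EMT score across the cells of a plate, with 1 point per plate and dashed lines at -0.3 and 0.3. EMP3 (0.723 to 0.817) and CAV1 (0.496 to 0.612) lie above the upper line in all 4 plates and EMP1 (-0.510 to -0.460) below the lower line.

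The mitochondrial share of a cell moved most with EMP3 and CAV1 among the members. Its mean rho over plates was -0.389 with the EMT score, -0.454 with EMP3 and -0.427 with CAV1. It was 0.175 with EMP1, -0.153 with EMP2 and -0.147 with CAV2. With mitochondrial rows left out before scaling, the mean rho with the score was 0.771 for EMP3, 0.528 for CAV1 and -0.523 for EMP1. With these rows it was 0.771, 0.556 and -0.487. Leaving them out changes the scaling but does not hold the mitochondrial share fixed, so the part of that share was not tested. At 10000 UMIs per cell the mean rho with the score was 0.701, 0.486 and -0.414 in the same order.

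Split by score into 3 equal parts of each plate, EMP3 had the largest fold between the highest and the lowest part among the 5 well-detected members. Its mean rose from 0.366 to 0.957 and 3.96 counts per 10000 in low-resolution replicate 1, and from 0.337 to 1.05 and 4.71 in replicate 2. In the high-resolution plates it rose from 0.853 to 4.57 and 6.42, and from 0.714 to 3.36 and 5.93. The larger step lay between the middle and the highest part at low resolution, whereas the middle part was already at 4.57 and 3.36 at high resolution. The parts were cut within each plate, so they need not hold the same scores in different plates. The highest part held 10.8, 14, 7.53 and 8.29 times the level of the lowest part, and 0.478% of the same 7956 genes reached 5 times in all 4 plates.

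EMP1 moved the other way and by less. It fell from 8.53 to 4.28 and from 7.84 to 3.36 counts per 10000 at low resolution, and from 6.42 to 3.05 and from 8.18 to 3.89 at high resolution. The highest part held 0.429 to 0.503 of the level of the lowest part, so EMP1 remained present in high-scoring cells.

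EMP2 did not follow either paralog. Its highest part stood at 1.02, 0.918, 1.04 and 1.01 times its lowest part.

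CAV1 and CAV2 also parted along the score. CAV1 rose from 10.5 to 20.7, from 7.63 to 17.3, from 11.2 to 22.4 and from 11.8 to 20.2 counts per 10000, which is 1.71 to 2.27 times. CAV2 stood at 1.16, 1.17, 1.24 and 0.985 times. PMP22 had no UMI in the lowest part of either low-resolution plate and at most 0.0412 counts per 10000 anywhere.

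**Figure D2:**
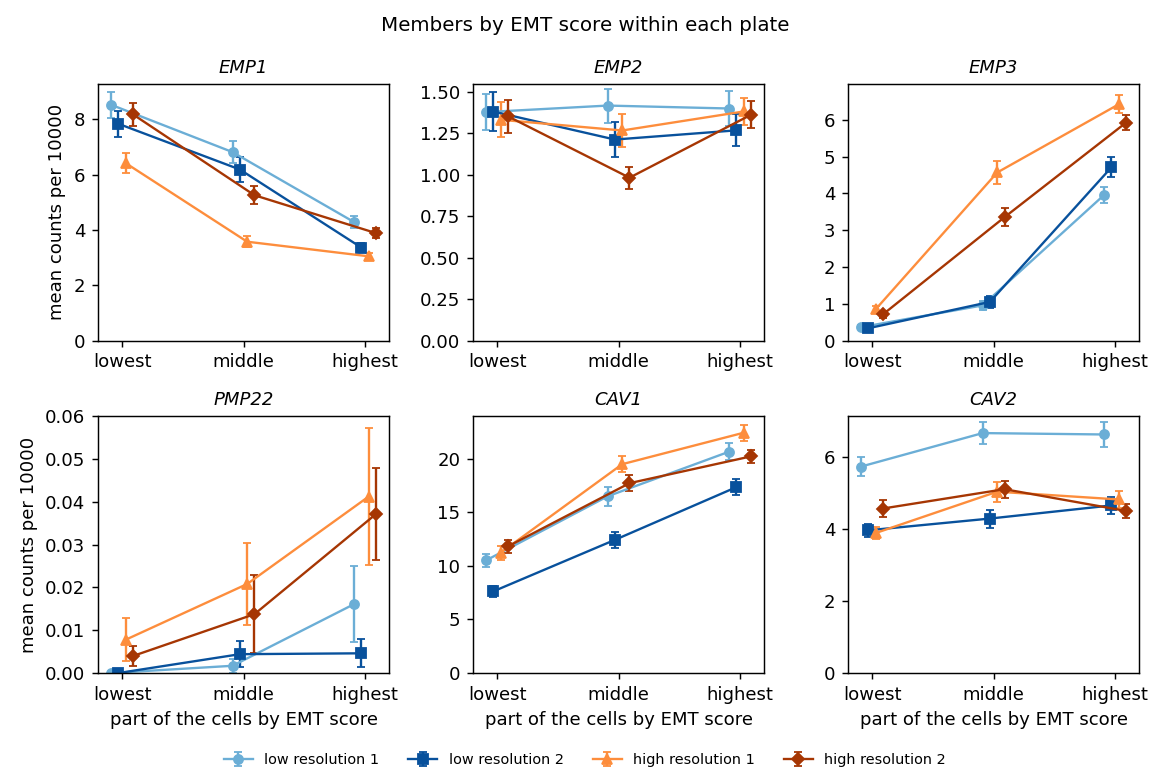
Mean counts per 10000 of each member in the lowest, middle and highest of 3 equal parts of the cells by EMT score, 1 line per plate, with bars of 1 standard error over cells. EMP1 falls from 6.42 to 8.53 down to 3.05 to 4.28, EMP3 rises from 0.337 to 0.853 up to 3.96 to 6.42, and EMP2 shows no common direction.

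The makeup of the family turned over along the score. EMP1 gave 81.0%, 80.6%, 73.1% and 77.6% of all UMIs of the 4 family members in the lowest part of the 4 plates, and 42.0%, 34.5%, 27.7% and 33.7% in the highest part. EMP3 gave 4.2%, 3.79%, 10.4% and 9.52% in the lowest part, and 43.0%, 52.7%, 59.2% and 53.8% in the highest. EMP2 kept between 10.2% and 16.5% throughout.

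The same exchange was seen cell by cell. The share of cells with more EMP3 than EMP1 UMIs was 0.0% (0.0 to 3.73), 0.0% (0.0 to 3.97), 0.0% (0.0 to 3.73) and 3.06% (0.636 to 8.69) in the lowest part, with exact 95% intervals. In the highest part it was 48.5% (38.2 to 58.8) and 64.4% (53.7 to 74.3) at low resolution and 90.7% (83.1 to 95.7) and 77.3% (67.7 to 85.2) at high resolution. Most cells held both paralogs: at equal depth 57.1% to 77.5% of cells held a UMI of each, and 1.05% to 3.17% held EMP3 without EMP1.

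**Figure D3:**
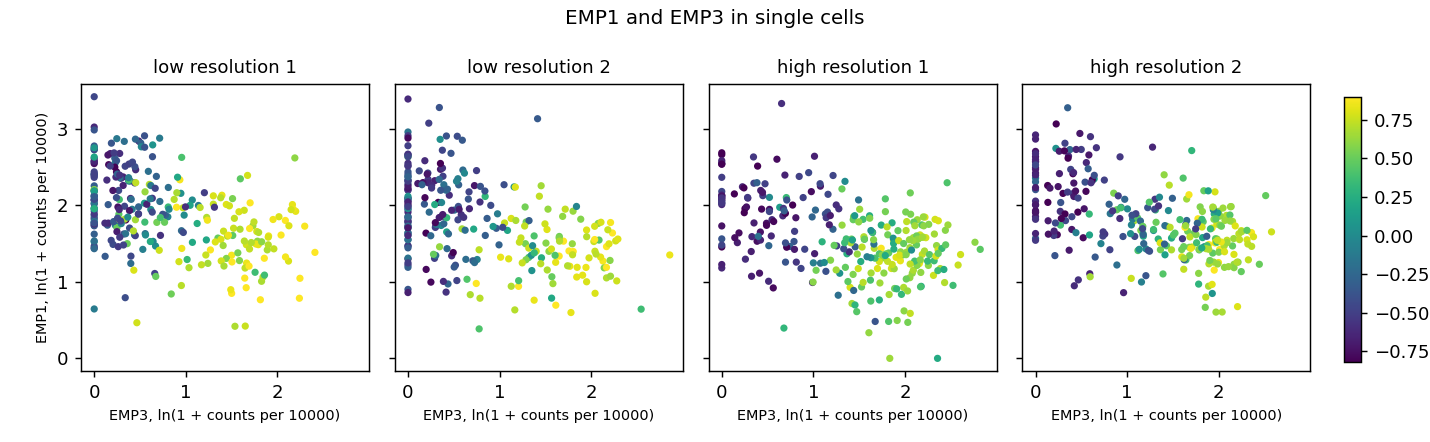
EMP1 against EMP3 in single cells of the 4 plates, both as natural log of 1 plus counts per 10000, coloured by EMT score. High-scoring cells lie towards high EMP3 and lower EMP1, with rho between the genes of -0.515 to -0.440.

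Across the cells of a plate EMP1 and EMP3 were opposed, with a rho of -0.464, -0.482, -0.440 and -0.515. EMP3 had the lowest mean rho with EMP1 of all 8026 genes compared, of which 0.411% reached -0.3 in all 4 plates. The mean of -0.475 became -0.179 given the EMT score and -0.366 at 10000 UMIs per cell.

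EMP3 and CAV1 rose together, with a rho of 0.440, 0.574, 0.542 and 0.481, where 2.44% of genes reached 0.3 with EMP3. Given the score the mean was 0.157. CAV1 and CAV2 had a rho of 0.458, 0.448, 0.366 and 0.312, and this was as large given the score (mean 0.402 against 0.396). CAV1 was the only gene of 8026 that reached 0.3 with CAV2 in all 4 plates (0.0125%) and had the highest mean rho with it, while CAV2 ranked 52nd for CAV1 and EMP3 ranked 3rd. At 10000 UMIs per cell the mean rho of CAV1 with CAV2 was 0.277, with 0.210 to 0.335 in the plates.

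These 3 of 15 pairs reached the limit in every plate. Among the others, EMP1 and CAV2 had 0.0317 to 0.204, EMP1 and CAV1 had -0.230 to -0.121, each pair with EMP2 lay between -0.213 and 0.102, and each pair with PMP22 between -0.172 and 0.215. Given the score, EMP1 and CAV1 turned to 0.0565 to 0.186. Cells of a plate share a library and depth, so these values describe the plates.

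**Figure D4:**
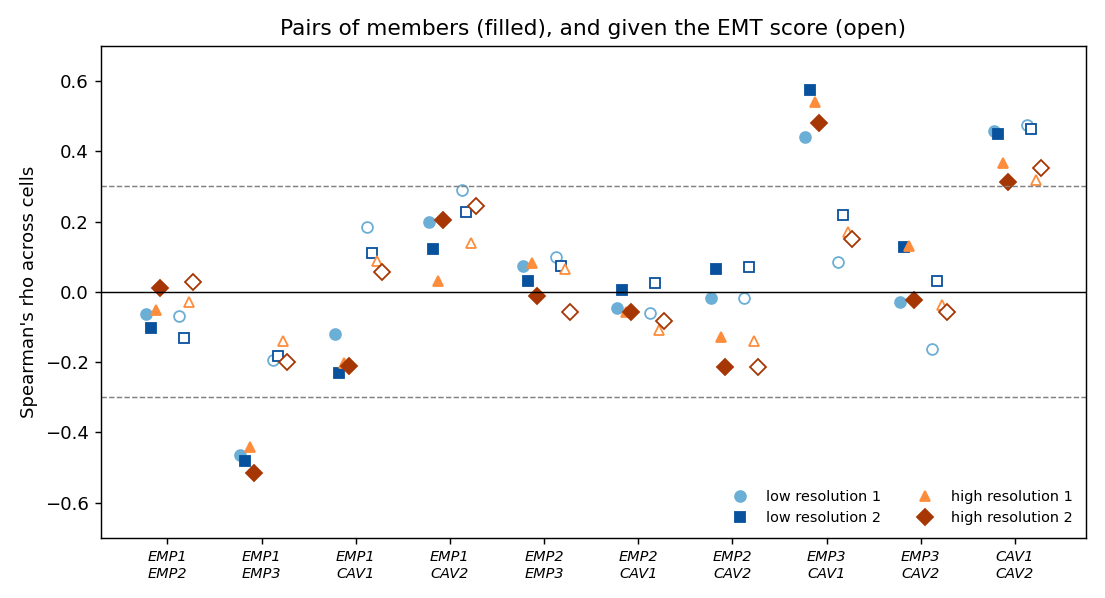
Spearman's rho across cells for the 10 pairs among the 5 well-detected members, 1 point per plate, filled as measured and open given the EMT score. The EMP1 and EMP3 pair moves from a mean of -0.475 to -0.179 and the EMP3 and CAV1 pair from 0.509 to 0.157, while CAV1 and CAV2 stay near 0.4.

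The ratio of CAV1 to CAV2 shifted with the score although their levels correlated. CAV1 UMIs outnumbered CAV2 UMIs by 1.93, 2.02, 2.87 and 2.87 times in the lowest part and by 3.22, 3.77, 4.79 and 4.58 times in the highest part. Over all cells the ratio was 2.59 and 2.93 at low resolution and 3.92 and 3.69 at high resolution, which do not overlap. Such a lack of overlap is common: by pooled counts per plate 28.3% of single genes were higher and 29.0% lower without overlap. No such share was computed for ratios. A permutation test of 2 against 2 plates cannot go below an exact two-sided p of 0.333. Cells with more CAV2 than CAV1 made up 5.15% to 16.5% of the lowest part and at most 1.11% of the highest. The share of CAV2 in both caveolins had a mean rho of -0.451 with the score.

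The members were also set against single EMT markers. EMP3 had a mean rho of -0.629 with CDH1, -0.597 with EPCAM, 0.609 with VIM, 0.634 with FN1, 0.534 with SNAI2, a transcription factor that represses CDH1, and 0.329 with ZEB1, another such repressor. CAV1 had -0.393 with CDH1, 0.349 with VIM, 0.357 with FN1 and 0.416 with SNAI2. EMP1 had 0.388 with CDH1, 0.331 with EPCAM, -0.308 with VIM and -0.423 with FN1. For EMP2 and CAV2 every mean with these markers was within -0.100 and 0.0950. CDH2, or N-cadherin, had a UMI in 3.69% to 8.53% of cells and is too sparse to order them.

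The genes most like each member were ranked by mean rho over the 4 plates, among 8026 genes. EMP3 was most like the metallothionein MT2A (0.767), the protease inhibitor SERPINE2 (0.733) and the annexin ANXA5 (0.721), and least like FXYD3 (-0.774), a regulator of the sodium pump. CAV1 was most like MT2A (0.580), ANXA5 (0.527) and EMP3 (0.509), and least like FXYD3 (-0.562) and the tight junction claudin CLDN7 (-0.541). EMP1 was close to the adhesion receptor ADGRF1 (0.505) and HSD11B2 (0.498), which inactivates cortisol, and was lowest with EMP3 and the aldose reductase AKR1B1 (-0.472).

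EMP2 and CAV2 had few relations. EMP2 had its highest means with the histone chaperone ASF1B (0.244), the DNA repair gene FANCI (0.236) and SHCBP1 (0.233), and its lowest with the mitochondrial transcripts MT-ND1 (-0.192) and MT-ND2 (-0.181). Its mean rho with the S and G2/M cell cycle scores was 0.193 and 0.186. Such values were not particular to EMP2. In the same order, CAV1 had 0.186 and 0.216 and EMP3 had 0.133 and 0.184. EMP1 (-0.150 and -0.179) and CAV2 (-0.121 and -0.0992) went the other way. After CAV1, CAV2 was most like SEMA3C (0.230) and ARHGAP29 (0.230), and it was lowest with MT-RNR1 (-0.246) and KRT81 (-0.185). No gene reached 0.3 with EMP2 in all plates, against 196 genes with EMP3, 83 with CAV1 (1.03%) and 61 with EMP1 (0.76%). In the negative direction the shares were 2.13% for EMP3 and 0.847% for CAV1. For PMP22 the highest were AMIGO2 (0.177), HDGFRP3 (0.176) and NT5E (0.175) and the lowest SYT8 (-0.168) and SCNN1A (-0.162), all weak in sparse counts.

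Of 11 further caveola genes, 10 were listed in the plates and 8 were detected in 20% or more of the cells in each plate, and 1 followed the score. This was CAVIN3, the cavin listed as PRKCDBP (mean rho 0.465, 0.393 to 0.550). CAVIN1, listed as PTRF and itself in the mesenchymal list, had 0.289 to 0.458 and EHD2 had 0.222 to 0.403. The lowest was PACSIN2, an F-BAR protein (-0.0763). CAVIN3 had a mean rho of 0.50 with EMP3, 0.368 with CAV1 and 0.0717 with CAV2.

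The relatives in the claudin-like superfamily looked for here, a list chosen with results of these data known, mostly went with EMP1. Of 8 genes looked for, 7 were listed in the plates and 5 were detected that widely. Of the 4 outside the score, 3 followed it downwards, where 2.41% of all genes outside the score did. PERP, CLDN4 and CLDN1 had mean rho values of -0.741, -0.730 and -0.562. CLDN7 had -0.799, but it is in the epithelial list, so this value is partly with itself. CLDN12 had -0.102 and did not follow it. EMP1 had a mean rho of 0.437 with PERP, a desmosomal protein, and 0.463 with CLDN4, and EMP3 had -0.668 and -0.658.

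High- and low-resolution plates were compared on the pooled counts of each plate's cells. This sets the sorted cells of 1 experiment against those of the other. Band width, the share of wells filled from each band and the experiment itself cannot be told apart. A plate sum does not separate more cells of a kind from more RNA per cell. The log2 differences and their standard errors come from an edgeR fit over 12429 genes. The fit partly pools the plate spread over genes, so a standard error is not a gene's own spread between plates. EMP3 had 174 and 209 CPM (counts scaled to the library's total) at low resolution and 390 and 349 at high resolution, and the difference was 0.94 ± 0.12. PMP22 had 0.584 and 0.403 against 2.32 and 1.86 CPM, a difference of 2.05 ± 0.48 that rests on 6 and 4 against 26 and 25 UMIs. These 2 of 6 members lay under an adjusted p of 0.05, as did 12.4% of all genes in either direction and 6.25% with higher values at high resolution. The members were picked with these plate levels known, so nothing is read from that count.

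The remaining 4 members had smaller differences. CAV1 had 1523 and 1270 against 1767 and 1738 CPM, a difference of 0.33 ± 0.11. EMP1 had 608 and 574 against 443 and 542 CPM, a difference of -0.26 ± 0.12. CAV2 (584, 430, 447 and 466 CPM) differed by -0.15 ± 0.13 and EMP2 (119 to 140 CPM) by -0.08 ± 0.12, with plates that overlapped. The plates did not overlap for EMP3, PMP22 and CAV1, all higher, as for 28.3% of genes, nor for EMP1, lower, as for 29.0%.

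The file names place low-resolution replicate 1 on another flow cell than the other 3 plates. Without it, EMP3 differed by 0.82, PMP22 by 2.34 and CAV1 by 0.47. With any plate left out, 1 of the groups holds 1 plate, so differences are given without calls. PMP22 then ran from 1.82 to 2.34, with standard errors of 0.61 to 0.80, and EMP3 from 0.82 to 1.09. CAV2 ran from -0.35 without low-resolution replicate 2 to 0.09 without replicate 1.

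**Figure D5:**
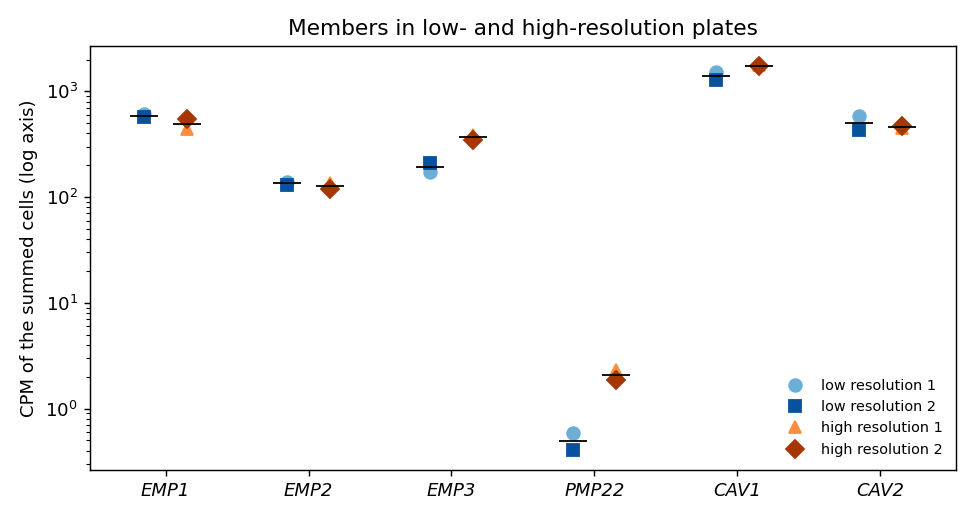
CPM of each member in the 4 plates, on a log axis, with low-resolution plates on the left of each pair of columns, high-resolution plates on the right and bars at the group means. EMP3 stands at 174 and 209 against 390 and 349, and EMP2 and CAV2 overlap between the experiments.

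Genes of the lists, other than the members, were tested in the same fit. In the caveola list, 2 of 8 tested genes passed an adjusted p of 0.05: CAVIN3 (0.69 ± 0.11, adjusted p = 0.00242, edgeR) and EHD2 (0.49 ± 0.11, adjusted p = 0.0160, edgeR), both higher, while CAVIN1 differed by 0.09 ± 0.12. In the superfamily list 4 of 5 tested genes passed: PERP, CLDN1, CLDN4 and CLDN7 had differences of -0.75 to -0.62, where 6.19% of all genes were lower and passed. Of the 12 EMT markers 6 passed. VIM (0.94 ± 0.13), FN1 (0.77 ± 0.11) and SNAI2 (1.36 ± 0.11) were higher, and CDH1 (-0.68 ± 0.12), OCLN (-0.60 ± 0.16) and KRT19 (-1.12 ± 0.23) were lower. The other 6 did not pass. EPCAM differed by -0.11 ± 0.11, TWIST1 by -0.48 ± 0.21 and ZEB2 by -0.11 ± 0.24. CDH2 differed by 0.76 ± 0.37, SNAI1 by 0.30 ± 0.60 and ZEB1 by 0.26 ± 0.26. The lists were chosen with results of these data known, and the share called over all genes is 12.4%.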

How the data were processed

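Single MCF10A cells from 2 low-resolution and 2 high-resolution plates were profiled by SORT-seq. The authors deposited expected counts, that is, the distinct UMIs of a gene in a well after correction for repeated draws of the same UMI, without scaling. The submitters' processing notes name STAR 2.7.3a, hg38 and Seurat 4. The correction could be undone for all 7245730 values above 0, and the whole UMIs were used for thinning and UMI sums. Plate totals ran from 11709628 to 14992348 transcripts.

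The study's limits on features (2000 to 9000) and on mitochondrial counts (under 40%) were applied, spike-ins left out, and counts log-normalized to 10000 per cell. Beyond the maximum of features, doublets were not called. The EMT score was computed by a custom implementation of GSVA, with 1 fit per experiment, and checked on simulated data. Correlations are Spearman's rho per plate without p-values. Expected counts summed per plate were rounded and tested with edgeR 4.0.16 (quasi-likelihood, TMM, filterByExpr, Benjamini-Hochberg at 0.05). DESeq2 1.42.0 was an alternative, and cell cycle scores came from Seurat 5.3.0. Promoter sequences and positions are RefSeq's (GRCh38.p14), and all 6 members matched by symbol.

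The members, gene lists and limits were chosen with earlier results of these data known. Named genes are the members, 7 EMT markers, the 3 highest and 2 lowest genes by mean rho with each member (1 sign in all plates, detected in 20% or more of the cells in each plate), and the extremes of each list. Of the genes so selected, 1 is not reported here. Other genes of the lists that passed the test, and the EMT markers beyond those 7, were named after their values were seen. The band of each well was not analysed here.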

Additional observations from a re-analysis of the deposited data

Results flagged for a closer look

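The rho of PMP22 with CAV2 across cells was 0.0143 and 0.00906 in low-resolution replicates 1 and 2 and -0.0572 and -0.0392 in high-resolution replicates 1 and 2. It was singled out because both plates of each experiment lay on the same side of 0 and the experiments on opposite sides. The difference was not tested. PMP22 had a UMI in 4 to 21 cells of a plate, and correlations this weak in sparse counts are no finding.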

How the results depend on the processing

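The count of 3 members following the EMT score stayed at 3 under all 12 alternatives. Of the pairs, 3 reached the limit in the main setting, 1 given the EMT score (CAV1 with CAV2), 2 at 10000 UMIs per cell, 2 with mitochondrial rows left out, 2 with a limit of 0.4, and 3 in the other settings. CAV1 with CAV2 was the pair lost at 10000 UMIs per cell (0.262 and 0.210 in the high-resolution plates). It was also the pair lost at a limit of 0.4 (0.366 and 0.312 in the same plates). With mitochondrial rows left out, its mean was the weakest of the 3 (0.350, against 0.466 for EMP3 with CAV1 and -0.515 for EMP1 with EMP3). The members under the threshold between the experiments, a count given as a description, were 2, but 1 by DESeq2, where PMP22 had no adjusted p. With a plate left out, 1 group holds 1 plate, so no calls are given for those fits. Without a filter on low counts 3 were called, CAV1 among them. Genes called numbered 1546, with 1050 by DESeq2, 2143 without a filter and 987 to 1323 with a plate left out, the lowest without high-resolution replicate 2. No result changed sign while called. The EMP3 difference ran from 0.82 without low-resolution replicate 1 to 1.09 without low-resolution replicate 2. The members were picked with these plate levels known, so their calls are no support.

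The labels tie same-numbered plates by their number only. The deviations of low- and high-resolution replicate 1 correlated at -0.0225 over genes, which cannot show whether the plates were otherwise paired. With the replicate number as a block, 2008 genes and 3 members were called, CAV1 among them. Depth limits PMP22 most, and 2 plates per experiment limit every comparison between them.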
